A study of Mus musculus with 9 samples.

Results

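The imprinted Dlk1-Dio3 domain was followed through 6 of its genes, Dlk1, Meg3, Rian, Mirg, Rtl1 and Dio3, in primary chondrocytes of mouse articular cartilage, the cells that build its matrix. They were selected by symbol and by their levels in these libraries, and are 6 of the 55450 gene rows in each deposited file, found in all 9 files. The members were chosen with their values in these libraries known, so their differences between groups are given as a description. Where the text counts members past the threshold of the fit across all genes, the count stands beside the share of all genes and supports nothing. Of the 6 members, 5 had at least 1 FPKM (fragments scaled by exon length and library size) in at least 3 libraries and entered the fit across 12441 genes, and Rtl1 did not.

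The 9 libraries form 3 groups of 3. All cells were grown in 10% serum at 3% oxygen and were exposed for 4 h to 4 U/mL of hyaluronidase. The vehicle group then had PBS for 24 h and DMSO for 5 days. The bleomycin group had 24 h of 50 µg/mL bleomycin, which causes DNA strand breaks, followed by 5 days in DMSO. The bleomycin plus ST045849 group had the same bleomycin exposure followed by 5 days in ST045849 at 20 µM, which inhibits the transferase that puts N-acetylglucosamine on nuclear and cytoplasmic proteins. Medium was renewed every 48 h. ST045849 without bleomycin was not analysed here, so its difference is seen only in cells that had received bleomycin. The labels give no strain, age or sex of the mice and do not say whether libraries of a group came from separate animals or cultures, so any p-value measures only the spread between these libraries.

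In an imprinted domain, the parental origin of an allele decides whether it is transcribed. On the maternal chromosome the Dlk1-Dio3 domain gives the long noncoding RNAs Meg3, Rian and Mirg, which share an orientation, and from them small nucleolar RNAs of the C/D class and a large set of microRNAs. On the paternal chromosome it gives 3 protein-coding genes: Dlk1, for a membrane protein related to Notch ligands that holds back adipocyte and other differentiation; Rtl1, a gene derived from a retrotransposon; and Dio3, for the deiodinase that inactivates thyroid hormone. These files do not tell alleles apart, so parental origin is background here and was not measured.

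In the GENCODE vM21 annotation of GRCm38 the domain lies on chromosome 12 and runs 828 kb from the start of Dlk1 to the end of Dio3. Dlk1 spans 109452823 to 109463336 on the plus strand, Meg3 109541001 to 109571726 and Rian 109603940 to 109661716. Mirg follows at 109729764 to 109749460 and the single-exon Dio3 at 110279068 to 110281097, all on the plus strand. Rtl1 is on the minus strand at 109589193 to 109600330, between Meg3 and Rian. Meg3 and Rian have 18089 and 18234 exon bases, against 7292 for Mirg, 5657 for Dlk1, 6358 for Rtl1 and 2030 for Dio3. The share of exon bases that lie opposite another annotated gene is 6.79% for Meg3 and 8.12% for Rtl1. Whether strand was used in counting is not given in the sources used here, so reads from such stretches cannot be assigned with certainty.

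The bases before the starts of Meg3 and Dlk1, the first maternal RNA and the paternal gene next to it, are shown as the starts of its noncoding and coding sides. They are 250 bases each from RefSeq on GRCm38.p6, at chr12:109540746-109540995 for Meg3 and chr12:109452573-109452822 for Dlk1, both plus strand. Capitals mark matches on either strand to TGACGTCA (the cyclic AMP response element), TGANTCA (AP-1), TATAAA (the TATA box), CCAAT (the site of NF-Y) and GGGCGG (the GC box). For Dio3 a stretch of 30 bases is shown, chr12:110279180-110279209, plus strand, from -50 to -21 relative to the RefSeq start. It is upstream of that start only. The GENCODE start of Dio3 lies earlier, at 110279068, so in that annotation these bases are inside its single exon.
Meg3 upstream: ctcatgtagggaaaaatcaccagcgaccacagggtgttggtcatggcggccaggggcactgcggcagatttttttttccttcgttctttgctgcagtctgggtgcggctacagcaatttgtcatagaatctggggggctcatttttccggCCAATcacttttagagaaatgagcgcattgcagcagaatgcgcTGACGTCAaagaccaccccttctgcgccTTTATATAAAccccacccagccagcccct
Dlk1 upstream: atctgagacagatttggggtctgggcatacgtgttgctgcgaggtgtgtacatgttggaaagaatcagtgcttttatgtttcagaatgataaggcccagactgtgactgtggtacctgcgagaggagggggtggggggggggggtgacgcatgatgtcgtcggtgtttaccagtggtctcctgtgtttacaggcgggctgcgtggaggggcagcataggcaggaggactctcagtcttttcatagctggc
Dio3 upstream: cgCCAATtcaagctttgacTATAAAttgag

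The Meg3 stretch holds TGACGTCA at -57 to -50, CCAAT at -100 to -96 and TATAAA at -25 to -20, overlapped by a reverse-strand match from -29. RefSeq has a further start of Meg3, not shown. The 250 bases before it, chr12:109545148-109545397, have none of the motifs searched. TGACGTCA is found in 1.55% of the 32851 promoters of the same length in the table, TATAAA in 12.4% and CCAAT in 33.8%. The Dlk1 stretch has none of the motifs searched, of which TGANTCA is found in 6.75% of promoters and GGGCGG in 32.7%. The Dio3 stretch shown has TATAAA at -31 to -26 and CCAAT at -48 to -44. Farther upstream, in bases not shown, Dio3 also has GGGCGG at -80 to -75. Reverse-strand matches to GGGCGG lie there at -235 to -230, -203 to -198 and -152 to -147, and to CCAAT at -125 to -121. Of the 6 members, 5 matched an entry of the RefSeq promoter table. A match describes letters only, since binding of factors was not measured here.

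The domain also holds 61 microRNA genes in the RefSeq table, with 113 mature sequences carrying 104 distinct seeds. Of these genes, 14 lie within Mirg, 3 within Rian and 2 within Meg3, each on the strand of its host. Within the span of Rtl1, 6 lie on the opposite strand and 1 on the same strand, and 35 lie between these genes. Mature microRNAs were not measured by these poly(A) libraries. A few are printed to show how the noncoding and coding members meet in sequence: 11 mature sequences are fully complementary to the Rtl1 transcript, among them miR-127-3p and miR-136-5p. The other pair, miR-134-5p and miR-410-3p, come from Mirg and have no full complement there. Capitals mark the seed, bases 2 to 8.
miR-127-3p: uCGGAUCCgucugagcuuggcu
miR-136-5p: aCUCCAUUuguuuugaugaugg
miR-134-5p: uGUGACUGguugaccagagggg
miR-410-3p: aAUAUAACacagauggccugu

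Depth was estimated from the steps between low values at 31300000 to 35900000 fragments per library. Of the marker lists, that of chondrocytes had the highest sum in every library. The 14 cartilage markers summed to 26449 to 38362 FPKM in vehicle, 19793 to 29132 in the bleomycin group and 16551 to 23660 in the group with both agents. Over all genes the libraries summed to 340303 to 483953 FPKM. Col2a1, the main cartilage collagen, took 2.02 to 7.07% of all FPKM. Markers of other cells moved with the groups. Synovial fibroblast markers summed to 1767 to 2460, 2699 to 3835 and 1542 to 2958 FPKM in the same order of groups, osteoblast markers to 16.1 to 37.8, 44.6 to 112 and 25.1 to 66.7, and macrophage markers to 3.05 to 5.82, 11 to 12.6 and 11.9 to 18, with Tyrobp, C1qb and C1qc at 0 in all libraries. Muscle markers summed to 7.89 to 8.88, 7.87 to 12.2 and 10.7 to 18, adipocyte markers to 7.14 to 17.3, 11.3 to 16.6 and 23.1 to 30.6, and endothelial markers stayed below 1. The part of these shifts in the values of the domain was not tested. In bulk RNA, fewer cells of a type and less RNA per cell cannot be told apart.

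Meg3 and Rian were the most abundant members. Meg3, the RNA nearest to the imprinting control region, stood at 354, 406 and 344 FPKM in vehicle libraries 1, 2 and 3. It stood at 249, 126 and 172 with bleomycin, and at 121, 119 and 116 with bleomycin plus ST045849. The 3 groups lay apart in steps, with every bleomycin library below every vehicle library and every ST045849 library below both. Means were 368 ± 33.5, 182 ± 62.2 and 119 ± 2.84 (SD, n = 3). The log2 difference of FPKM + 1 was -1.06 ± 0.25 (SE) for bleomycin against vehicle, -0.56 ± 0.25 for ST045849 added to bleomycin and -1.62 ± 0.25 for both agents against vehicle.

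Rian, which carries many of the C/D small nucleolar RNAs of the domain, stood at 292, 349 and 309 FPKM in vehicle, at 234, 179 and 181 with bleomycin, and at 180, 127 and 217 with bleomycin plus ST045849. Both treated groups lay wholly below vehicle and overlapped each other. Means were 317 ± 29.2, 198 ± 31.4 and 175 ± 45.5 FPKM (SD, n = 3). Differences on the log2 scale were -0.68 ± 0.24 (SE) for bleomycin against vehicle, -0.20 ± 0.24 for ST045849 against bleomycin and -0.88 ± 0.24 for both agents against vehicle.

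Mirg, the microRNA host farthest from Meg3, was the least abundant of these RNAs. It stood at 27.5, 25.0 and 43.2 FPKM in vehicle, at 12.2, 9.89 and 13 with bleomycin and at 9.43, 17.8 and 23.9 with bleomycin plus ST045849. Again both treated groups lay below every vehicle library and overlapped each other, here with 2 of the 3 ST045849 libraries above all bleomycin libraries. Means were 31.9 ± 9.89, 11.7 ± 1.62 and 17.0 ± 7.27 FPKM (SD, n = 3). The log2 differences were -1.34 ± 0.32 (SE) for bleomycin against vehicle, 0.43 ± 0.32 for ST045849 against bleomycin and -0.92 ± 0.32 for both agents against vehicle.

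**Figure D1:**
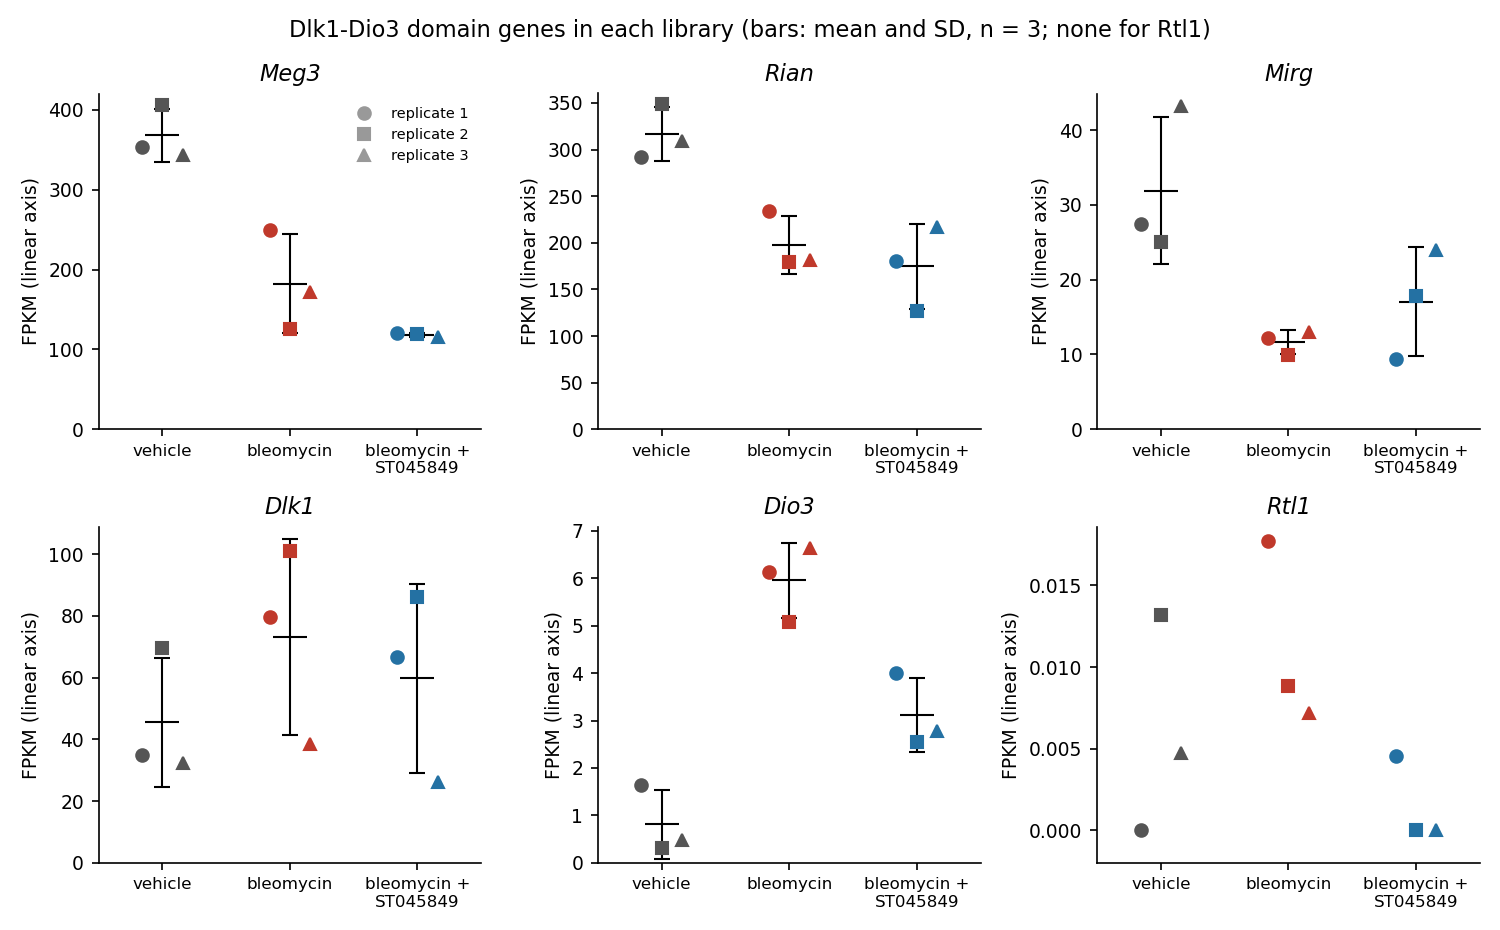
FPKM of each member (linear axis, one panel per gene) in the 3 libraries of each group, with symbols for the replicate number and bars for the mean and SD of 3 libraries, none for Rtl1. Meg3 lies at 344 to 406 in vehicle and at 116 to 121 with both agents, Dio3 is at least 5.09 in every bleomycin library against at most 1.64 in vehicle, and Dlk1 overlaps in all groups.

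Of the paternal genes, Dlk1 was the most abundant. It stood at 34.8, 69.7 and 32.2 FPKM in vehicle, at 79.7, 101 and 38.6 with bleomycin and at 66.6, 86.3 and 26.3 with bleomycin plus ST045849. Groups overlapped in every comparison, while in each group library 2 was the highest and library 3 the lowest. Means were 45.5 ± 20.9, 73.0 ± 31.6 and 59.7 ± 30.6 FPKM (SD, n = 3). The log2 differences, 0.65 ± 0.48 (SE), -0.34 ± 0.48 and 0.31 ± 0.48 for the 3 comparisons in the order above, did not exceed the spread between libraries. Between libraries of the same number the ratio of ST045849 to bleomycin was 0.835, 0.857 and 0.679. That of bleomycin to vehicle was 2.29, 1.45 and 1.20, and that of both agents to vehicle 1.91, 1.24 and 0.816. Equal numbers did not deviate together throughout for vehicle and the treated groups, so ratios to vehicle rest on a number only.

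Dio3 was low in vehicle, at 1.64, 0.307 and 0.479 FPKM, where only library 1 reached the 1 FPKM of the filter. It stood at 6.13, 5.09 and 6.65 with bleomycin and at 4.00, 2.55 and 2.79 with bleomycin plus ST045849. The 3 groups lay apart, bleomycin highest and vehicle lowest, with ST045849 libraries in between. Means were 0.808 ± 0.724, 5.96 ± 0.791 and 3.12 ± 0.777 FPKM (SD, n = 3), so the bleomycin mean was 7.37-fold the vehicle mean. That ratio rests on vehicle library 1: it was 15.2 without it and 5.63 to 7.91 without any other of the 6 libraries. On the log2 scale, where the added 1 FPKM understates changes of low genes, the differences were 2.01 ± 0.26 (SE) for bleomycin against vehicle, -0.77 ± 0.26 for ST045849 against bleomycin and 1.24 ± 0.26 for both agents against vehicle.

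Rtl1 was at the limit of detection. It was listed at 0, 0.0132 and 0.00475 FPKM in vehicle, at 0.0177, 0.00883 and 0.0072 with bleomycin and at 0.00455, 0 and 0 with bleomycin plus ST045849, which corresponds to an estimated 0 to 4 fragments per library. No difference is given for it.

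Dio3os, the noncoding gene that starts 896 bases from Dio3 on the other strand, is no member. It stood at 0.623, 0.0982 and 0.188 FPKM in vehicle, 3.46, 1.26 and 0.754 with bleomycin and 1.68, 1.20 and 0.491 with bleomycin plus ST045849. Bleomycin libraries lay above vehicle libraries, and the ST045849 libraries overlapped both. The log2 difference for bleomycin against vehicle was 1.02 ± 0.33 (SE) with an adjusted p of 0.119 in limma, and for ST045849 against bleomycin it was -0.34 ± 0.33 with an adjusted p of 0.519.

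In the fit across all 12441 genes, 1 of the 5 tested members (Dio3) passed an adjusted p under 0.05 upward and 2 (Meg3 and Mirg) downward for bleomycin against vehicle, where 4.2% of all genes were called higher and 0.675% lower. Groups lay apart for 1 member higher and 3 lower, against 21.4% and 6.53% of all genes. For both agents against vehicle, 1 member (Dio3) was called higher and 2 (Meg3 and Rian) lower, against 8.11% and 1.74%, and groups lay apart for 1 higher and 3 lower, against 21% and 6.66%. The rule used these contrasts, so nothing is read from the counts. For bleomycin against vehicle the Mirg call was lost in 7 of 19 alternatives, namely with no filter on low values and without any of the 6 libraries compared. The Meg3 call was lost in 9 of 19: with no filter, as TPM, in the 2 groups alone with a replicate block, and without vehicle 1, 2 or 3, bleomycin 2 or 3, or ST045849 library 3. Over the alternatives the log2 differences were 1.81 to 3.02 for Dio3, -1.31 to -0.82 for Meg3 and -1.49 to -1.11 for Mirg. For both agents against vehicle the Dio3 call was lost with no filter and without vehicle 2 or 3. The Meg3 call was lost in both fits of the 2 groups alone with a replicate block, and its difference was -0.99 with the length trend removed. The Rian call was lost in 13 of 19 alternatives, among them no filter, the replicate block, the 2 groups alone and the length trend removed, where the difference was -0.25, and without vehicle 2 or 3, any bleomycin library or ST045849 library 2.

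In the comparison of ST045849 with bleomycin limma called 0 of the 12441 genes, 0% higher and 0% lower, with 2804 at an unadjusted p under 0.05. Groups lay apart for 0 members higher and 2 (Dio3 and Meg3) lower, against 16.5% and 8.67% of all genes. Libraries of these groups with the same number deviated from their group means together, and in the paired fit of these 2 groups 11.3% of genes were called higher and 8% lower. There Dio3 was called lower, at -0.77 ± 0.18 (SE), and no other member was called. Without ST045849 library 1, the unpaired fit called 2225 genes, Dio3 among them.

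Set against each other within a library, the maternal RNAs and the coding genes shifted in balance with bleomycin. The mean log2(FPKM + 1) of Meg3, Rian and Mirg minus that of Dlk1, Rtl1 and Dio3 was 4.98, 5.09 and 5.52 in vehicle, 3.46, 2.88 and 3.50 with bleomycin, and 3.14, 3.29 and 4.20 with bleomycin plus ST045849. Vehicle libraries lay above all 6 treated libraries, and the treated groups overlapped. Group means were 5.20 ± 0.285, 3.28 ± 0.347 and 3.54 ± 0.574 (SD, n = 3), a difference of -1.92 for bleomycin against vehicle, 0.26 for ST045849 against bleomycin and -1.66 for both agents against vehicle. The difference of 0.26 was within the spread of the libraries and turned to -0.07 without ST045849 library 3. Of the coding genes, Dio3 differed most between vehicle and bleomycin (2.01 ± 0.26, SE), at 0.307 to 6.65 FPKM in those libraries. Dlk1 overlapped (0.65 ± 0.48), so the measure does not show a rise of the coding genes as a class. Rtl1, near 0 throughout, lowers the coding mean. Without it, a choice made after the data were seen, the measure averaged 4.16 ± 0.369, 1.80 ± 0.412 and 2.24 ± 0.73 (SD, n = 3), with differences of -2.36, 0.44 and -1.92 in the same order, and the vehicle libraries again lay above all treated ones. The maternal RNAs made up 91.8 to 95.5% of the summed FPKM of the 6 genes in vehicle, 74.8 to 89.0% with bleomycin and 74.8 to 92.5% with both agents.

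The maternal RNAs did not keep fixed proportions. Rian per Meg3, 2 RNAs of nearly equal exon length, was 0.823, 0.858 and 0.900 in vehicle, 0.941, 1.43 and 1.05 with bleomycin and 1.48, 1.07 and 1.88 with bleomycin plus ST045849. Meg3 was the more abundant of the pair in every vehicle library and Rian in every ST045849 library. Mirg per Rian averaged 0.102 ± 0.0348 in vehicle, 0.0598 ± 0.0109 with bleomycin and 0.101 ± 0.0446 with both agents (SD, n = 3), with overlap between all groups. Meg3 per Dio3 was 216 to 1320 in vehicle, 24.6 to 40.6 with bleomycin and 30.3 to 46.7 with both agents, so it was lower in all treated libraries than in any vehicle library. Meg3 per Dlk1 was 5.83 to 10.7, 1.25 to 4.46 and 1.38 to 4.41 in the same order. Apart from Rian per Meg3, these ratios pair RNAs of unlike exon length. For ST045849 against bleomycin the median log2 difference of tested genes was 0.39 at 1500 to 2500 exon bases. It was -0.23 at 6500 to 8500 bases and -0.57 at 15000 to 22000. The part of length in the ratios with both agents was not tested, so no return of Mirg per Rian to the vehicle level is read from them.

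**Figure D2:**
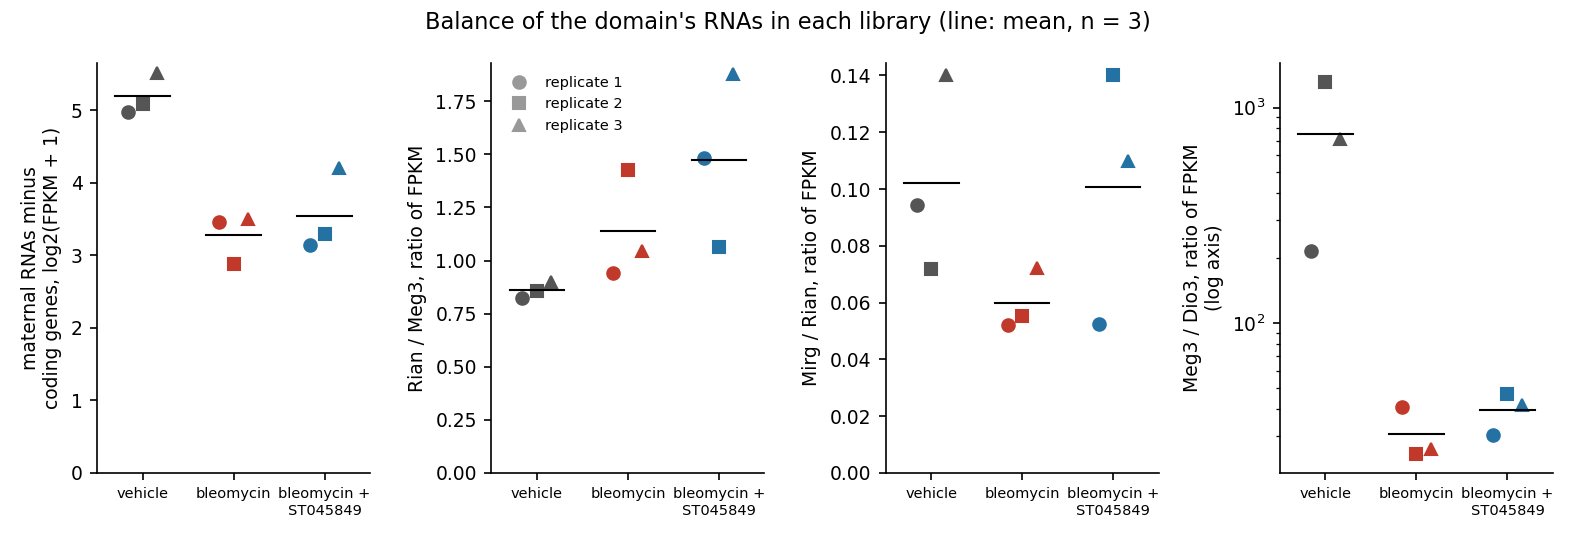
Balance of the members in each library, as the difference of mean log2(FPKM + 1) between maternal RNAs and coding genes and as ratios of FPKM (the last on a log axis), with lines at the mean of 3 libraries. The maternal excess is 4.98 or more in vehicle and 4.20 or less in treated libraries, and Rian per Meg3 is below 1 in vehicle and above 1 in all ST045849 libraries.

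The order of levels shows the same. In vehicle the means ran Meg3, Rian, Dlk1, Mirg, Dio3 and Rtl1, where Meg3 and Rian overlapped between libraries (344 to 406 against 292 to 349 FPKM), as did Dlk1 and Mirg. With bleomycin Meg3 and Rian overlapped at 126 to 249 and 179 to 234 FPKM, and Dlk1 at 38.6 to 101 lay above Mirg at 9.89 to 13. With both agents Rian at 127 to 217 lay wholly above Meg3 at 116 to 121. Dio3 was below Mirg and above Rtl1 in every library. Together the 6 genes held 0.208 ± 0.0382% of a library's summed FPKM in vehicle, 0.130 ± 0.0286% with bleomycin and 0.0851 ± 0.0136% with both agents (SD, n = 3).

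Exon length moved with the ST045849 comparison, which bears on Meg3 and Rian as very long RNAs. Among 266 tested genes with 15000 to 22000 exon bases the median log2 difference for ST045849 against bleomycin was -0.57, with a 10th to 90th percentile range of -1.12 to -0.06, while 1617 genes of 1500 to 2500 bases, the length class of Dio3, had a median of 0.39. For bleomycin against vehicle the medians of those classes were 0.12 and 0.08, close to the 0.10 of all genes. For both agents against vehicle they were -0.46 and 0.48, beside 0.19 for all genes. With each library's length trend removed, the difference for ST045849 against bleomycin became 0.07 for Meg3 and 0.43 for Rian, both reversed in sign, and -1.08 for Dio3. For bleomycin against vehicle Meg3 stayed at -1.06 and Rian at -0.68. The part of length in the ST045849 values was not tested beyond this.

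**Figure D3:**
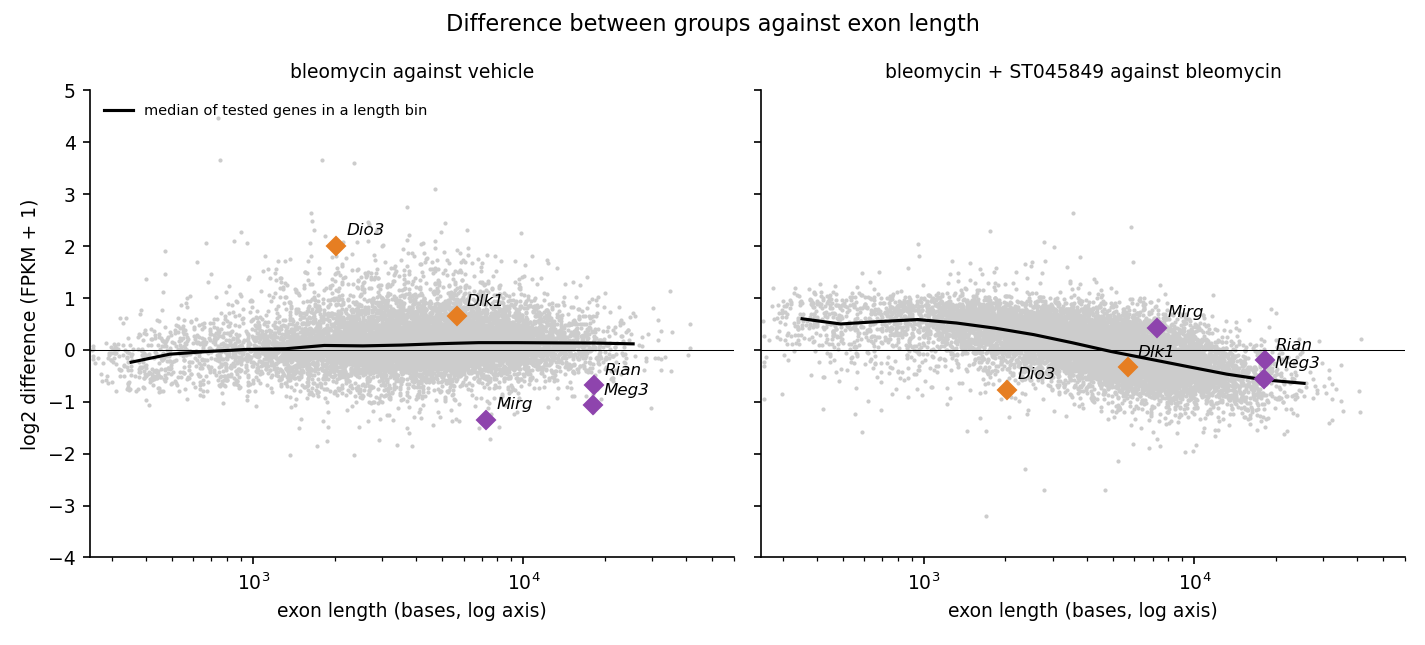
Log2 difference of FPKM + 1 for each tested gene (grey points) against exon length in bases (log axis), for bleomycin against vehicle (left) and bleomycin plus ST045849 against bleomycin (right), with the median in length bins of at least 20 genes as a line. On the left Meg3, Rian and Mirg lie below a nearly level line and Dio3 above it, and on the right Meg3 lies on the sloping line and Dio3 below it.

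The tested genes on either side of the domain lay close to the median of all genes. Of 16 symbols fixed as flanking genes, 14 were tested, and limma called 0 in each of the 3 comparisons, with 0 also in the paired fit. Their log2 differences for bleomycin against vehicle ran from -0.37 to 0.41 with a median of 0.08, beside 0.10 for all genes, and adjusted p from 0.306 to 0.960. Begain, the nearest on the Dlk1 side, was at 0.08, and Ppp2r5c, the nearest beyond Dio3, was at -0.04. With ST045849 against bleomycin they ran from -0.55 to 0.51 and for both agents against vehicle from -0.47 to 0.38. Whether members and flanking genes differ was not tested.

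**Figure D4:**
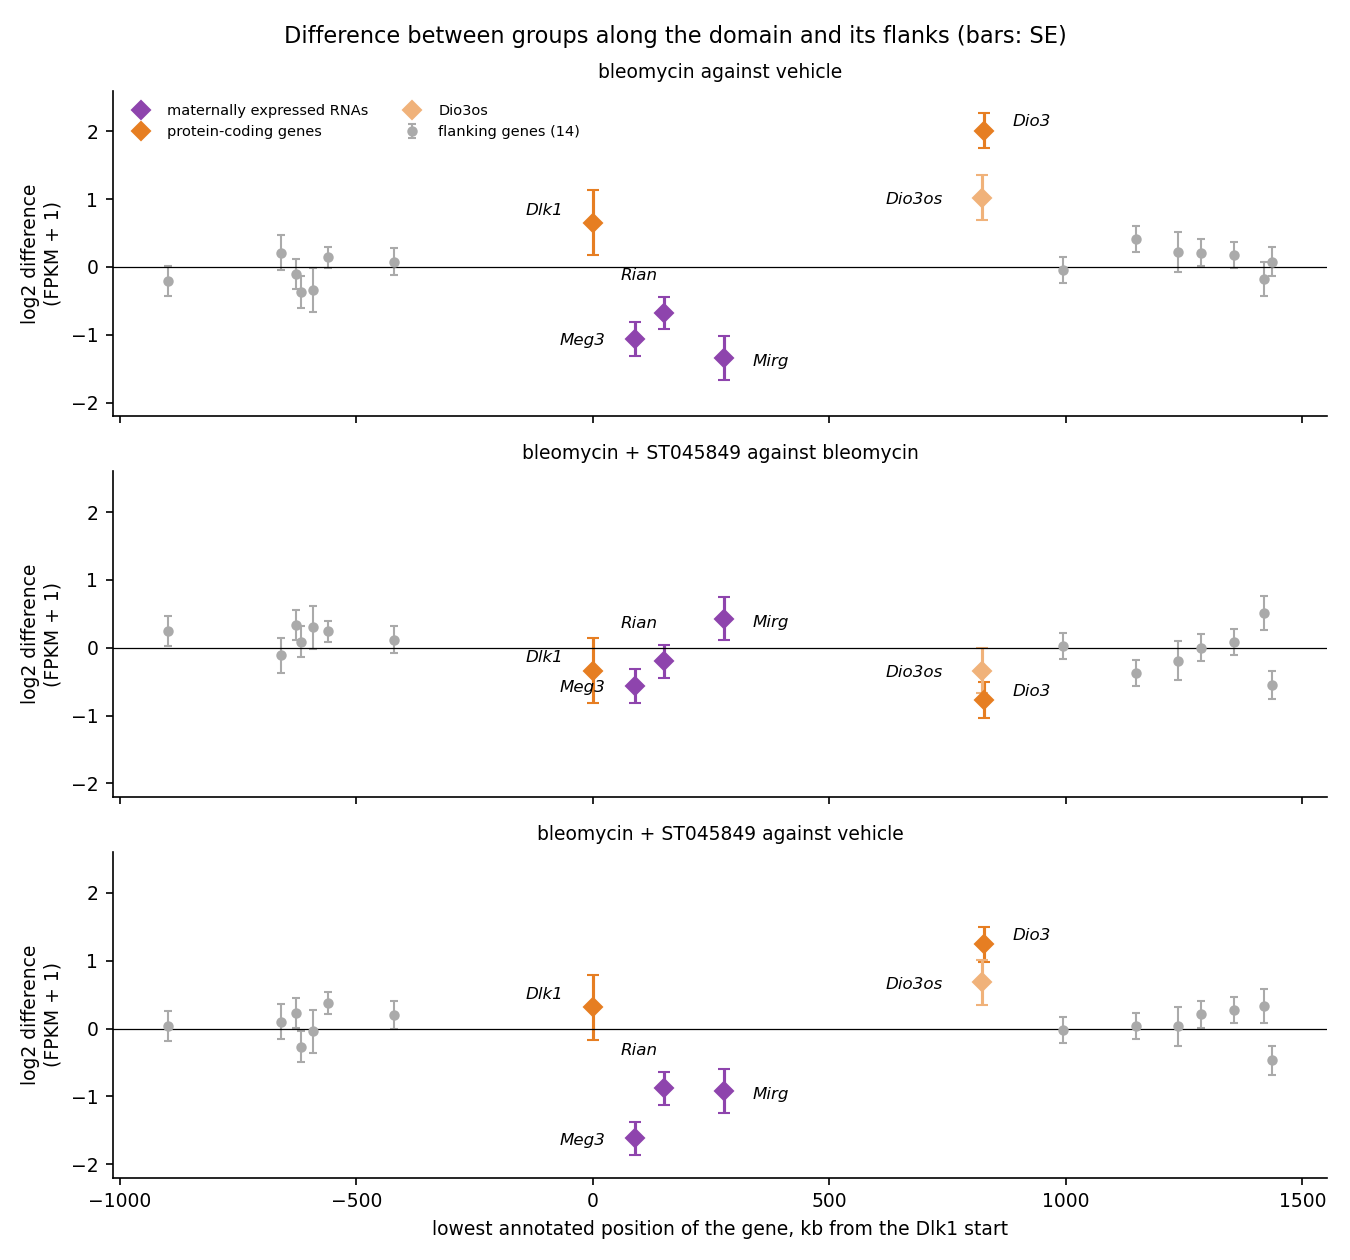
Log2 difference of FPKM + 1 with its SE for the 5 tested members, Dio3os and 14 flanking genes, against the lowest annotated position of each gene in kb from the Dlk1 start, for the 3 comparisons. For bleomycin against vehicle the maternal RNAs lie at -0.68 to -1.34 and Dio3 at 2.01, with all flanking genes between -0.37 and 0.41.

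Inside the domain 110 further annotated genes start between Dlk1 and Dio3, 67 of them microRNA and 23 small nucleolar RNA genes. Rows above 0 in some library numbered 83, and 10 were tested. The microRNA and small nucleolar RNA rows reached at most 7.08 FPKM, and the tested ones rested on an estimated 18.9 fragments or fewer per library and lie within the spans of Rian and Mirg. Mir453, within Mirg, was the 1 row past the threshold, lower with both agents than in vehicle at -1.25 ± 0.33 (SE, limma adjusted p = 0.0407) on at most 9.62 fragments. The call was lost without 6 of the 9 libraries (vehicle 2 or 3, bleomycin 2 or 3, ST045849 library 2 or 3), with adjusted p up to 0.162. The row is named because it was the only such row, after its value was seen. These values stand for precursor or host RNA and not for mature microRNAs.

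Other imprinted genes were read from lists chosen with earlier results of these data known. For bleomycin against vehicle 4.2% of all genes were called higher and 0.675% lower, and for both agents against vehicle 8.11% and 1.74%. In the paired fit of ST045849 against bleomycin the shares were 11.3% and 8%. Counts of called genes in this and the following lists stand beside these shares, and nothing is read from the counts. The lists sort genes by the allele they are known for, and whether each is imprinted in chondrocytes was not measured. Of 18 tested genes listed as paternally expressed, 2 rose and 2 fell with bleomycin against vehicle, and the median difference was 0.03 beside 0.10 for all genes. Magel2, of the Prader-Willi cluster, fell from 8.08 ± 2.74 to 2.23 ± 0.22 FPKM (SD, n = 3; log2 difference -1.44, limma adjusted p = 0.00787), and Usp29 fell from 15.8 to 6.25 (-1.19, adjusted p = 0.0108). Peg13 rose by 0.81 (adjusted p = 0.0302) and Inpp5f by 0.69 (adjusted p = 0.0456). When single libraries were left out the highest adjusted p was 0.0444 for Magel2, 0.0623 for Usp29 (without vehicle 2 or 3 or bleomycin 2), 0.126 for Peg13 (lost without vehicle 1 or 2 or any bleomycin library) and 0.159 for Inpp5f (lost without any of the libraries compared or ST045849 library 3).

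Of 20 tested genes listed as maternally expressed, 3 rose and 1 fell, with a median of 0.10. Their allele in these cells was not measured either. H19, the noncoding RNA paired with Igf2 in another imprinted domain, fell from 4581 ± 834 to 1627 ± 121 FPKM (SD, n = 3; log2 difference -1.48 ± 0.27, limma adjusted p = 0.0119). The call was lost without vehicle 2 or 3 or bleomycin 1 or 2, with adjusted p up to 0.0699. Igf2, the growth factor of that domain, was at 4248 ± 1060 and 3021 ± 244 (-0.46, adjusted p = 0.47). Cd81, a tetraspanin, rose by 0.93 (adjusted p = 0.0354) and Ampd3, an adenosine monophosphate deaminase, by 1.06 (adjusted p = 0.0307). Both calls were lost without any of the 6 libraries compared, with adjusted p up to 0.167 and 0.127.

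For both agents against vehicle, 2 of the 18 paternal genes rose and 3 fell, and 2 of the 20 maternal genes rose and 3 fell, with medians of 0.15 and 0.13 beside 0.19 for all genes. Magel2 fell by 1.73 (limma adjusted p = 0.00291) and Snrpn, a splicing protein gene, rose by 1.35 (adjusted p = 0.0065), and both calls held without each library. Usp29 fell by 1.18 (adjusted p = 0.00834, and 0.0512 without vehicle 2). Of the maternal genes, Slc22a18 rose by 1.23 (adjusted p = 0.00674), a call that held without each library. Cd81 rose by 0.85 (adjusted p = 0.0353), lost without 8 of the 9 libraries (up to 0.117). Ppp1r9a fell by 0.80 (adjusted p = 0.0236), lost without vehicle 2 or 3 or ST045849 library 3 (up to 0.11). Zim1 stood at 90.1 ± 58.1 in vehicle and 11.5 ± 8.92 with both agents (-2.89, adjusted p = 0.0207), a call lost without vehicle 2 or 3 or ST045849 library 2 or 3 (adjusted p up to 0.0962). H19 fell by 1.00 (adjusted p = 0.0405), lost without 6 of the 9 libraries (up to 0.163): vehicle 2 or 3, any bleomycin library or ST045849 library 3. Peg3, a zinc finger gene, fell by 1.81 (adjusted p = 0.0412), lost without vehicle 2 or 3, bleomycin 3 or ST045849 library 2 or 3 (up to 0.159). For both agents against vehicle the median of all tested genes also fell with exon length, from 0.48 at 1500 to 2500 bases to -0.46 at 15000 to 22000. Of the falls named, Usp29, Ppp1r9a and Peg3 have 18078, 14531 and 13324 exon bases, and Zim1, Magel2 and H19 have 8086, 4631 and 2460. The rises of Cd81, Snrpn and Slc22a18 belong to genes of 2879, 2159 and 1699 bases. The part of length in these calls was not tested. Both sets of comparisons share the vehicle libraries. For ST045849 against bleomycin 0 of either list was called, with medians of 0.00 and -0.04. In the paired fit 1 rose (Snrpn) and 2 fell (Peg3 and Plagl1) of the paternal genes, and 1 rose and 4 fell of the maternal genes. With the length trend also removed 0 paternal genes were called, and of the maternal genes 1 fell, Zim1.

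**Figure D5:**
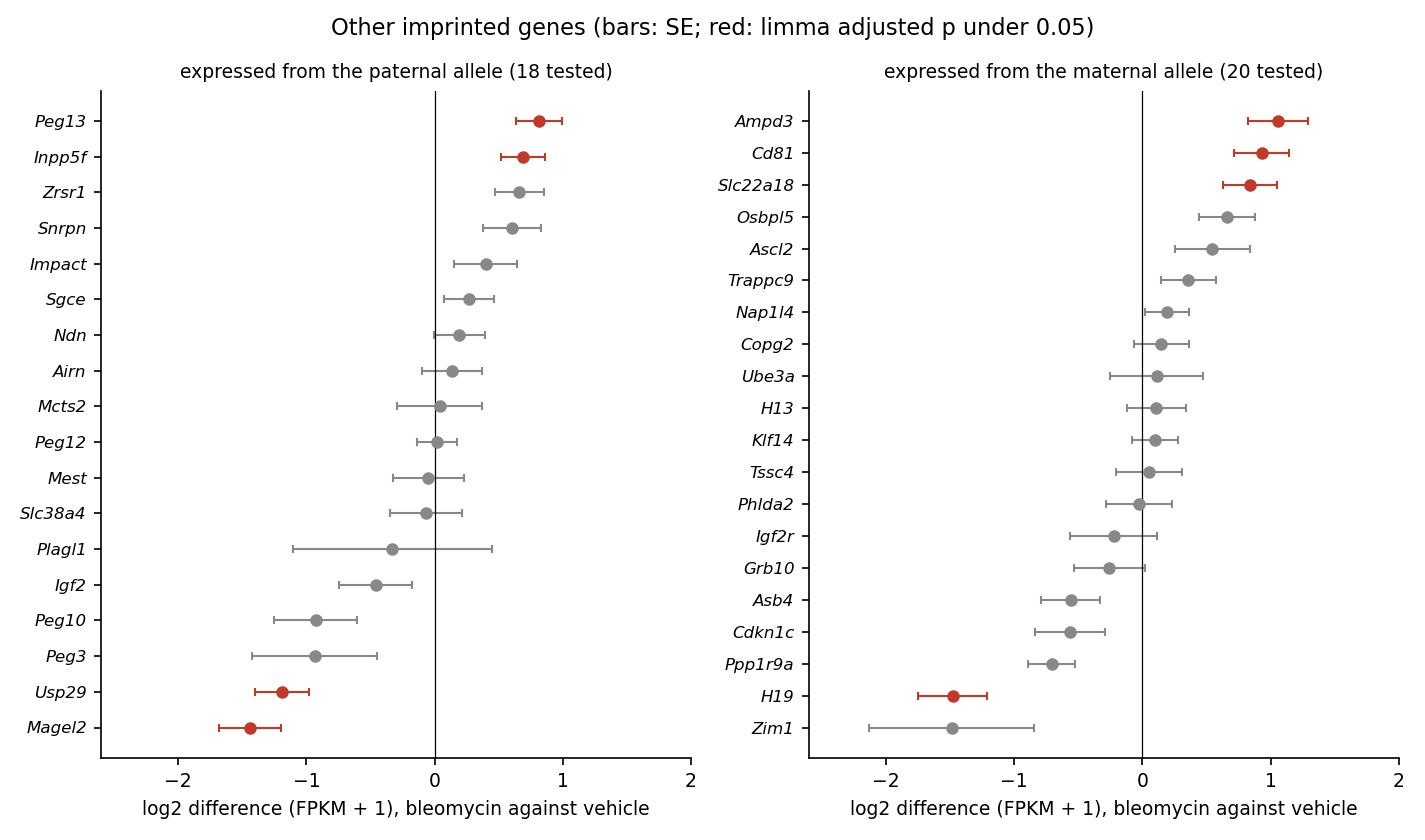
Log2 difference of FPKM + 1 with its SE for bleomycin against vehicle, with red for a limma adjusted p under 0.05. Shown are 18 genes listed as paternally and 20 as maternally expressed in other domains, whose allele was not measured here. Genes of both lists lie on both sides of 0, H19 and Magel2 at -1.48 and -1.44 among the lowest.

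Factors that set or keep imprints, among them DNA methyltransferases and zinc finger cofactors, gave 0 calls of 19 tested for bleomycin against vehicle, with a median of -0.05. Dnmt1, which copies methylation after replication, was at 11.7 ± 0.156 and 10.6 ± 0.404 FPKM (SD, n = 3; log2 difference -0.14, limma adjusted p = 0.829), and Trim28, a corepressor, at 57.6 and 48.6 (-0.23, adjusted p = 0.671). For ST045849 against bleomycin and for both agents against vehicle 0 were called, and the medians were -0.48 and -0.49 beside 0.06 and 0.19 for all genes. In the paired fit 5 fell (Atrx, Zfp445, Tet2, Tet1 and Suz12) and 0 rose, and with the length trend also removed 0 were called.

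Genes tied to the function of DLK1 were read next. Of 11 tested Notch pathway genes 2 rose and 0 fell with bleomycin against vehicle (median 0.42, all genes 0.10): the receptor gene Notch3 went from 0.432 ± 0.305 to 2.34 ± 0.46 FPKM (SD, n = 3; 1.23, limma adjusted p = 0.0123) and the ligand gene Jag1 from 0.382 to 1.22 (0.68, adjusted p = 0.0456). In vehicle both genes were below 1 FPKM, the level of the filter, and they entered the fit through treated libraries only. The list held 22 symbols, of which the rest did not pass that filter, so nothing is read from these rises. The calls were lost without vehicle 3 or bleomycin 1 or 2 for Notch3 (adjusted p up to 0.058) and without any of the 6 libraries compared for Jag1 (up to 0.174). The protease gene Adam17, which releases the DLK1 ectodomain, was at 14.2 ± 0.739 FPKM in vehicle, 18.6 ± 2.58 with bleomycin and 15.6 ± 5.36 with both agents (SD, n = 3). Its log2 difference was 0.07 for both agents against vehicle (limma adjusted p = 0.86) and -0.29 for ST045849 against bleomycin (adjusted p = 0.443). For the ST045849 comparisons 0 Notch genes were called, with 3 (Maml2, Rbpj and Notch3) falling in the paired fit and 0 called there with the length trend also removed.

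Of 10 adipocyte differentiation genes 6 were tested, and 2 rose with bleomycin and 3 with both agents against vehicle. Over all genes 4.2% and 8.11% were called higher. The medians of the list were 0.23 and 0.96, beside 0.10 and 0.19 for all genes. Both genes named next were close to 1 FPKM, the level of the filter, in vehicle, and nothing is read from the counts. Cebpa, a transcription factor gene, went from 1.21 ± 0.122 to 3.26 ± 0.0405 and 4.18 ± 0.883 FPKM (SD, n = 3; log2 differences 0.95 and 1.22, limma adjusted p = 0.0114 and 0.00287). Pparg, the main regulator of fat cell formation, went from 1.35 to 2.97 and 4.63 (0.76 and 1.26, adjusted p = 0.045 and 0.00393). With bleomycin the Cebpa call was lost without vehicle 2 or 3 or bleomycin 2 (up to 0.0644) and the Pparg call without any of the 6 libraries compared (up to 0.181), while with both agents the calls of both held. For ST045849 against bleomycin 0 were called, and in the paired fit Cebpb and Fabp4 rose, with 0 called once the length trend was also removed.

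Of 9 tested genes of thyroid hormone transport, conversion and response, 0 rose and 1 fell with bleomycin, with a median of 0.39. Slc7a5, an amino acid transporter gene that also carries iodothyronines, went from 56.1 ± 11.2 to 27.7 ± 5.39 and then 65.0 ± 16.5 FPKM with ST045849 added (SD, n = 3). The fall of 0.99 had a limma adjusted p of 0.0472, lost without any of the 6 libraries compared or ST045849 library 3 (up to 0.187), and the paired difference of 1.19 for ST045849 against bleomycin had an adjusted p of 0.0115. For both agents against vehicle 0 were called. In the paired fit Hr and Ncor1, of the hormone response, fell. With the length trend also removed Slc7a5 was still called higher and Hr lower, and Ncor1 was not called.

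Other long noncoding RNAs, most of them nuclear, formed a further list. Of 16 tested, 0 were called with bleomycin against vehicle, with a median of -0.19. Gas5, a host of small nucleolar RNAs, was at 583 ± 86.1 and 367 ± 20.6 FPKM (SD, n = 3; -0.66, limma adjusted p = 0.315). With both agents against vehicle 2 rose (Hotairm1 and Pvt1) and 2 fell (Firre and Ftx), each lost without vehicle 2 or 3 or ST045849 library 2, Hotairm1, Pvt1 and Ftx also without ST045849 library 3, Pvt1 without bleomycin 3 and Ftx without any bleomycin library, with adjusted p up to 0.167. The 16 tested genes of microRNA and small nucleolar RNA processing gave 0 calls with bleomycin and 1 with both agents, Ago3, which went from 3.95 to 1.58 FPKM (-0.92, adjusted p = 0.0364), a call lost without 5 of the 9 libraries: vehicle 2 or 3, bleomycin 3 or ST045849 library 2 or 3 (up to 0.158). Exon length was 1025 bases for Hotairm1 and 6996 for Pvt1, which rose, and 8247 for Firre, 10205 for Ftx and 16571 for Ago3, which fell. The part of length in these calls was not tested. In the paired fit for ST045849 against bleomycin 2 of the processing genes rose and 7 fell, and with the length trend also removed 0 were called.

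By Pearson correlation of log2(FPKM + 1) over the 9 libraries, ranked over 12436 tested genes outside the domain's members, the genes most like the mean of the 3 maternal RNAs were Nfxl1 (0.955), Cyth1 (0.948), Trib1 (0.943), Slc35d1 (0.940) and Fam98a (0.938). None lies on chromosome 12. Slc35d1, a nucleotide sugar transporter gene needed for cartilage chondroitin sulfate, was at 19.3 FPKM in vehicle and 8.75 and 8.59 in the treated groups. The likeness partly rests on the shared difference between groups: for deviations from group means the correlation was 0.876 for Nfxl1 and 0.335 for Slc35d1. Most like Dlk1 were Ip6k1 (0.943), Vav2 (0.933), Tecpr1 (0.925), Mdga1 (0.910) and Tmem213 (0.908), whose deviations from group means correlated with those of Dlk1 at 0.912 to 0.964. Libraries share treatment and processing, so these values describe the 9 libraries only. Among members, Meg3 and Rian correlated at 0.882, Mirg and Dio3 at -0.844 and Dlk1 and Meg3 at -0.222.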

How the data were processed

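The data are 9 poly(A) RNA libraries of primary mouse chondrocytes, 3 in each of 3 groups. Per the labels' protocols the kit was a stranded mRNA kit. Per the submitters' processing notes Trimmomatic and STAR were used on the reads, with GRCm38 as the genome. The authors deposited FPKM per gene. What program, annotation and denominator gave them, and whether strand counted, is not given in the sources used here. Whole reads were not recovered: 31.6 to 36.6% of low values of single-transcript genes fell within 0.02 of a whole step, so depth is an estimate and no count test was run.

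Members were matched by symbol. Positions and exon lengths came from GENCODE vM21, which held 99.4% of the identifiers, and sequences from RefSeq tables of GRCm38.p6. The log2(FPKM + 1) values of the 12441 genes that reached 1 FPKM in 3 or more libraries were fitted together with limma 3.58.1 in R 4.3.3 (trended variances), with Benjamini-Hochberg adjustment over all of them and a threshold of 0.05. The fit was tested on simulated data. Members and gene lists were chosen with earlier results of these data known. Named genes are all members, all tested flanking genes, at most 2 rises and 2 falls per list by adjusted p (where none was called, its most abundant tested gene), the 5 genes most like the maternal RNAs and like Dlk1, and Igf2, H19, Peg3, Plagl1, Dnmt1, Col2a1 and Dio3os.

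Deviations from group means correlated between equal replicate numbers at 0.466, 0.481 and 0.5 for bleomycin and bleomycin plus ST045849, so a paired fit is reported for that comparison. The labels do not state a pairing. Alternatives were other pseudocounts, filters, scalings (median of ratios, TPM), a replicate block, the 2 groups alone, removal of each library's trend with exon length (loess, span 0.5), leaving out each library and, added after the data were seen, the coding genes without Rtl1.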

Additional observations from a re-analysis of the deposited data

How the results depend on the processing

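The difference of maternal RNAs and coding genes for bleomycin against vehicle (-1.92) kept its direction in all alternatives run, was -2.36 with Rtl1 left out of the coding genes (chosen after seeing the data) and lay at -2.03 to -1.72 when single libraries were left out. For both agents against vehicle (-1.66) it was -1.98 to -1.45 without single libraries and -1.14 with the length trend removed, over all libraries and in the 2 groups alone with a replicate block. For ST045849 against bleomycin (0.26) it was 0.76 with the length trend removed, in both fits, and -0.07 to 0.46 without single libraries, reversed at -0.07 without ST045849 library 3. Removing the length trend reversed that comparison for Meg3 (0.07) and Rian (0.43), again in both fits. Exon length cannot be set apart from ST045849 by these libraries.

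Genes called for bleomycin against vehicle, 607 in all, were 284 at a mean of at least 5 FPKM, 1024 in the 2 groups alone and 1333 in the 2 groups alone with length removed and a replicate block. They were 184 to 829 without single libraries: 334, 184 and 206 without vehicle 1, 2 and 3, and 250, 202 and 262 without bleomycin 1, 2 and 3. For ST045849 against bleomycin, with 0 called, there was 1 without a filter, 2 at a mean of at least 5 FPKM, 2 with length removed, 2403 in the 2 groups alone with a replicate block and 115 there with length also removed. A replicate block over all 9 libraries gave 0. Leaving out single libraries gave 0 to 2225, with 2225 without ST045849 library 1 and 3 without library 2. For both agents against vehicle, with 1225 called, there were 651 without a filter, 660 at a mean of at least 5 FPKM, 710 as TPM, 621 in the 2 groups alone, 199 in the 2 groups alone with a replicate block and 349 there with length also removed. A replicate block over all 9 libraries gave 1386. Single libraries gave 286 to 3060: 1883, 286 and 351 without vehicle 1, 2 and 3, and 3060, 623 and 611 without ST045849 library 1, 2 and 3. The cause of these shifts was not tested. Equal replicate numbers did not correlate throughout for vehicle with bleomycin (-0.071, -0.026 and 0.546) or with bleomycin plus ST045849 (-0.519, -0.279 and 0.424), so a block there rests on a number only.

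Scaling moved the median of all genes for ST045849 against bleomycin from 0.06 to -0.01 by median of ratios and to -0.19 as TPM. Of the member values under alternatives, 273 were classed as within 1 SD, 8 as moved and 4 as reversed. Not every change of sign is among those 4. Dlk1 ranged from -0.74 to 0.16 for ST045849 against bleomycin and from -0.03 to 0.81 for both agents against vehicle. Rtl1 and most microRNA rows lay at or near a few fragments, where depth allows no comparison.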
